A study of Homo sapiens with 24 samples.

Results

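The comparison described here was that of U2OS cells after 60 min in 500 µM sodium arsenite (NaAsO2) with cells given only the DMSO vehicle, in the soluble cytoplasmic fraction. It was chosen by the fraction and treatment in the sample labels and took 6 of the 24 libraries of the series, 3 of NaAsO2 and 3 of control. U2OS is a human osteosarcoma line, and neither group received RK-33, an inhibitor of the RNA helicase DDX3 that was used elsewhere in the series. The soluble fraction was the supernatant left after lysis, a slow spin that removed nuclei and a faster spin that pelleted the granule-enriched insoluble material. RNA was sequenced as total RNA and counted separately over the exons and over the introns of each gene. Because every library was one fraction of one cell line, the values describe a share of a fraction, and fewer cells, fewer RNA copies per cell and a move of RNA between fractions cannot be told apart in them. The labels number the 3 libraries of each group but do not say whether they came from separate cultures. The study's methods state that the sequencing of both fractions was done 3 times under every condition, without further detail of the cultures. The p-values of the gene tests measure the spread between libraries within groups, shared over the 8 groups of the series. Those of the permutation tests rest on the 6 libraries alone. How much of this spread is technical is not known.

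Arsenite binds to thiol groups of proteins and is a standard trigger of oxidative and proteotoxic stress. Misfolded protein releases the heat shock factor HSF1, which switches on chaperone genes, while the metal-responsive factor MTF1 switches on metallothioneins, small cysteine-rich proteins that bind zinc and other metals. NRF2 and the release of the repressor BACH1 switch on heme oxygenase, and stress kinases switch on immediate early genes such as FOS and EGR1. At the same time most translation stops and mRNAs gather in stress granules. Introns are removed from a transcript within minutes of its synthesis, so in whole cells intron fragments sample young, unspliced RNA and retained introns. Exon fragments sample mostly finished mRNA. For these cytoplasmic fractions, the paper proposes that intron reads may come from RNA derived from introns, from lariats or from exported unspliced mRNA. Which of these the intron counts held was not tested, so a rise on introns is not by itself new transcription. Setting the exon change beside the intron change of a gene in the same libraries shows whether the 2 moved together.

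The exon tables of the 6 libraries held between 8627294 and 11967198 counts, and exons and introns together between 10968059 and 13858985. The intron share of a library was 20.6% ± 2.53 in control and 15.8% ± 2.74 after NaAsO2 (SD, n = 3), with overlapping groups (exact permutation test, two-sided p = 0.2). RN7SL1, the RNA of the signal recognition particle, took 7.51% to 9.29% of the exon counts in control and 10.5% to 13.1% after NaAsO2 (two-sided exact permutation p = 0.1, the smallest that 3 against 3 libraries can give). Among the libraries used only for comparison below, NaAsO2 insoluble replicate 3 stood apart with 5.79% RN7SL1 against 0.426% to 1.23% in the other insoluble libraries, and RK-33 soluble replicate 3 stood apart with 15.5%. Comparisons that use them are given with and without them. The main soluble tests also drew their estimate of spread from them, because all 24 libraries shared one model. NaAsO2 soluble replicate 3 after RK-33 had the highest intron share of its group, 28.4% against 18.1% and 19.5%, and was kept in every fit. As a check of the label, the 10 osteosarcoma and mesenchymal markers summed to between 4735 and 4915 CPM (counts scaled to a common library size, as for all gene values below) in the 6 libraries, of which 2 markers averaged under 10 counts. The 15 markers of other cell types (blood, epithelial, endothelial, liver and nerve cells) summed to between 17.3 and 24.5 CPM, with 1 at 0 in every library and 9 averaging under 10 counts. The 16 RNAs held in the nucleus, summed, lay between 11250 and 15820 CPM in control and between 6445 and 8706 CPM after NaAsO2, without overlap, and most of this sum was MALAT1. MALAT1 had 15023, 10684 and 11851 CPM in control and 8207, 7024 and 5992 CPM after NaAsO2 (log2 change -0.82 ± 0.20 SE, adjusted p = 0.00888). Of the 9 listed RNAs with enough counts for a test, MALAT1 alone was lower at any size, none was higher and the median change was -0.07, while 4 of the 16 were at 0 in every library. The part that the MALAT1 level or the intron share had in the intron results was not tested.

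Promoters of 4 genes are shown because they carry the binding motifs of HSF1 and MTF1, the factors with known targets among the genes that rose. Each run gives bases before the RefSeq start of the gene on its own strand (GRCh38.p14), in lower case with the motif in capitals. The run ends at the start itself except in CHORDC1, where the 28 bases nearest the start are left out because the annotation places them inside the gene. For HSPA6 (chr1:161524290-161524539, plus strand) and CHORDC1 (chr11:90223078-90223299, minus strand) the capitals mark the heat shock element, spelled GAANNTTCNNGAA or TTCNNGAANNTTC. For MT1X (chr16:56682220-56682469) and MT2A (chr16:56608334-56608583), both on the plus strand, they mark the metal response element, spelled TGCACNC or TGCGCNC, or GNGTGCA or GNGCGCA on the other strand.
HSPA6: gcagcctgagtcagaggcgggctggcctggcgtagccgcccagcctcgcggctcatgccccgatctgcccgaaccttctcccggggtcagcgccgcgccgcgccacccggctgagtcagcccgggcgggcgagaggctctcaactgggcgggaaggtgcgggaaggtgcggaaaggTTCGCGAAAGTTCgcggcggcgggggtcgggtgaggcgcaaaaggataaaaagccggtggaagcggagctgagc
CHORDC1: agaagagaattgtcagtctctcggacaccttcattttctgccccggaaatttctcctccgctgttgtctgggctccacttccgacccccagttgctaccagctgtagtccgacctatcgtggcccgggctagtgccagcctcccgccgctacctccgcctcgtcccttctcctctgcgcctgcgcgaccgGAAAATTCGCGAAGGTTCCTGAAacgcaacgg
MT1X: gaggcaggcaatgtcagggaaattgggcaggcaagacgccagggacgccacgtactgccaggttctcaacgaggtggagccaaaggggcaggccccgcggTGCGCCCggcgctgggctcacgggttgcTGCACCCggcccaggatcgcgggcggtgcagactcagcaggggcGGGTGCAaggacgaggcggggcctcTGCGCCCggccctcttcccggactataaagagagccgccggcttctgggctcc
MT2A: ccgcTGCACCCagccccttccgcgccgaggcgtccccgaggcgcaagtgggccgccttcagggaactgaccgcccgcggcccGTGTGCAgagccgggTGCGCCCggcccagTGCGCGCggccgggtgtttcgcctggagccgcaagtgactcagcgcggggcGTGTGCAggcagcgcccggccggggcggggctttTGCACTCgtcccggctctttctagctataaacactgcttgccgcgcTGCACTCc
HSPA6 held 1 heat shock element, 61 bases from the start, and CHORDC1 held 3 overlapping ones, counted separately, the nearest 37 bases away. MT1X held 4 metal response elements and MT2A held 7, the nearest 46 bases and 1 base from the start. Both strands were searched in windows of 250 bases before to 50 after the start. The heat shock element occurred in 0.608% of the 27305 genes with a window, in 9 of the 27 HSF1 target genes with a window (33.3%), in 5 of the 106 genes with higher introns (4.72%: CHORDC1, DNAJA1, HSP90AA1, HSP90AB1 and HSPA8) and in 1 of the 53 with higher exons (HSPA6). The intron calls of those 5 genes were all lost with introns scaled by all counts of a library, and that of HSP90AA1 in 10 of 15 alternatives. The shorter metal response element was common. More than 1 was held by 10.2% of all genes and by 5 of the 6 metallothionein and zinc genes with a window. Genes that rose differed little from those tested. More than 1 was held by 15.1% of genes tested on exons and 9 of the 53 higher. On introns these were 14.9% and 19 of the 106 (17.9%). The cyclic AMP response element occurred in 1 of the 53 and 5 of the 106, against 3.73% and 3.42% of those tested. The antioxidant response element occurred in 7 and 19, against 19.3% in both tables. A match describes letters only and says nothing of binding in these cells.

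After NaAsO2, few genes changed by 2-fold or more in the soluble fraction. On exons, 87 of 17666 genes were higher (0.492% of those tested) and 209 were lower (1.18%), and on introns 161 of 17406 were higher (0.925%) and 276 lower (1.59%), each at an adjusted p under 0.05 in edgeR's quasi-likelihood test and a log2 change of at least 1 in size. Without the limit on size, 1114 genes were higher (6.31%) and 1237 lower (7.0%) on exons, and 323 (1.86%) and 595 (3.42%) on introns. A group of libraries lying wholly above or below the other was common, at 26.9% of genes higher and 21.7% lower on exons and 14.4% and 17.1% on introns, so separation alone marks no gene out. The median change of all genes was 0.03 on exons and 0.01 on introns (log2), where values were CPM scaled by the trimmed mean of M-values (TMM). Scaled by library size alone, the exon calls became 49 higher and 515 lower (8.69% of calls higher against 29.4%) with a median of -0.15, and scaling introns by all counts of a library gave 64 higher and 1470 lower (4.17% against 36.8%) with a median of -0.43. A fit of the 6 soluble libraries alone, or of all 12 soluble ones, gave 88 and 80 higher against 409 and 385 lower on exons (17.7% and 17.2% of calls higher). Leaving out NaAsO2 replicate 1 or 3 left 56 or 54 genes higher on exons, leaving out control replicate 1 left 97 lower on exons (40.1% of calls higher) and 106 higher on introns, and leaving out NaAsO2 replicate 2 left 143 lower on introns. Directions for single genes below are relative to the bulk of genes. Under library size alone the 2-fold exon calls of DYNC1H1, HSPG2, MYH9, PSMD2, DDIT3 and DDIT4 were lost, and with introns scaled by all counts of a library those of CHORDC1, DNAJA1, HSP90AA1, HSP90AB1 and HSPA8.

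Exon calls and intron calls overlapped in part. Of the 87 genes with higher exons, 23 had no introns in the table, 8 had too few intron counts for a test and 56 were tested in both tables. Among these 56, introns were also higher in 17 and lower in none, and 38 of the other 39 were not past the adjusted p for introns at any size. The 17 made up 30.4% of the 56, while 106 of all 13116 genes tested in both tables had higher introns, and the 17 were 16% of those. In the other direction, 9 of 85 genes with lower exons (10.6%) were also lower on introns, while 208 of all 13116 had lower introns, of which the 9 were 4.33%. Across the 13116 genes tested in both tables, the exon and intron changes, measured in the same libraries, had a Pearson r of 0.15 and a Spearman rho of 0.09. A direct test of the intron change minus the exon change called 252 genes with the intron change above (1.92%) and 500 with it below (3.81%). Under 1 library size for both tables, these counts were 50 and 1462 (3.31% of calls above against 33.5%), with the median of all genes at -0.38 in place of -0.04.

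**Figure D1:**
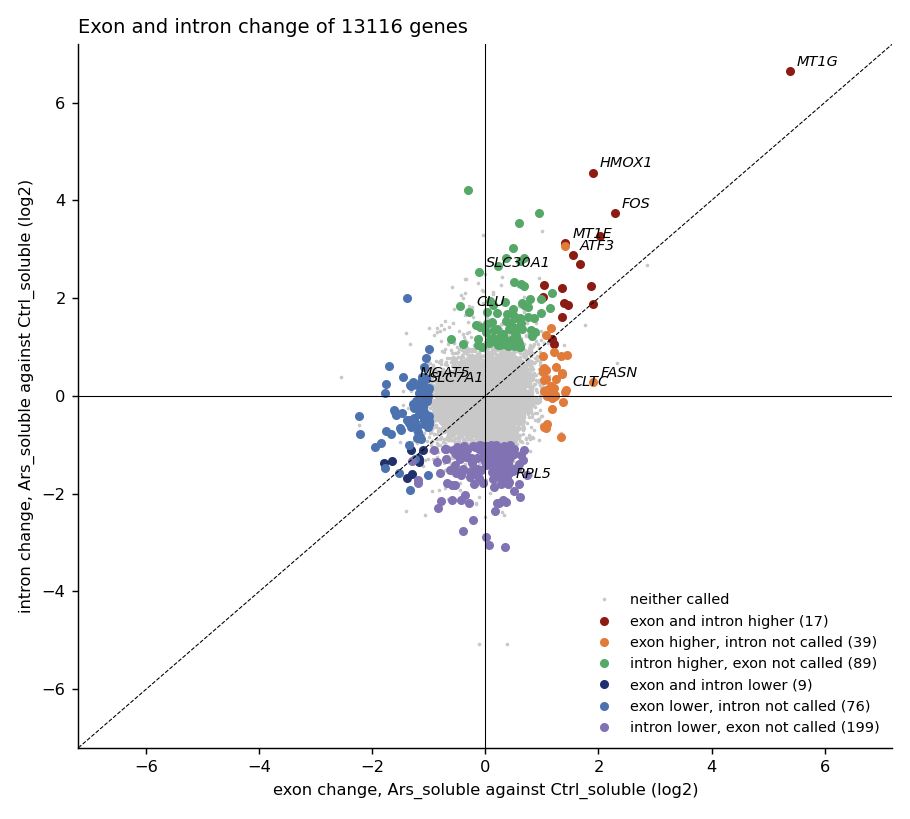
Log2 change after NaAsO2 on introns (vertical axis) against that on exons (horizontal axis) for the 13116 genes tested in both tables, soluble fraction. Coloured points are called genes: 17 higher on both, 39 higher on exons with introns not called, 89 higher on introns with exons not called, 9 lower on both, 76 lower on exons and 199 lower on introns with the other not called; the dashed line marks equal changes.

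Metallothionein genes gave the steepest rise. MT1G (chr16:56666730-56668065, minus strand) had 0.559, 0.184 and 0.856 CPM on exons in control, from 6, 2 and 8 counts, and 21.0, 24.8 and 20.4 CPM after NaAsO2. It went from almost no RNA to a clear level in every NaAsO2 library (log2 5.38 ± 0.47 SE, adjusted p = 1.82e-07, edgeR's quasi-likelihood test as for all gene values here). Its introns went from 0.904, 0.372 and 0.362 CPM to 61.2, 56.4 and 63.7 CPM. MT1X (chr16:56682470-56684196) rose from 27.2 ± 6.45 to 281 ± 15.7 CPM on exons (SD, n = 3), a log2 change of 3.37 ± 0.19. MT1E, already present in control at 203, 207 and 242 CPM, reached 561, 591 and 576 CPM on exons (1.41 ± 0.13), while its introns rose from 52.7 ± 3.20 to 459 ± 59.7 CPM (3.12 ± 0.18). The intron change of MT1E exceeded its exon change by 1.70 ± 0.17 (adjusted p = 3.92e-07). MT2A, the most highly expressed gene of the family in many tissues, rose from 687 ± 65.9 to 1042 ± 63.8 CPM, below the size limit at 0.60 ± 0.14 (adjusted p = 0.00747). In all, 6 of the 12 listed metallothionein and zinc genes had enough counts for a test on exons. Of these, 3 were higher by at least 2-fold and none lower, beside 0.492% of all genes higher. On introns 3 of 4 were higher, beside 0.925% of all genes. Family members are close copies, and 18.6% of the exon bases of MT1X are shared with other annotated genes, so counts may be split between them.

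SLC30A1, the zinc exporter of the plasma membrane and a classic MTF1 target, had higher introns without higher exons. Its introns stood at 15.1, 16.7 and 16.3 CPM in control and at 102, 83.7 and 91.4 CPM after NaAsO2, with no overlap (2.53 ± 0.20, adjusted p = 9.42e-10). Exons had 846, 653 and 853 CPM in control and 712, 739 and 718 CPM after NaAsO2, with overlapping groups (-0.12 ± 0.20, adjusted p = 0.742). The intron change exceeded the exon change by 2.64 ± 0.24 (adjusted p = 1.23e-07). Clusterin, encoded by CLU, is a secreted chaperone and had the same pattern. CLU introns rose from 82.2 ± 8.76 to 271 ± 37.1 CPM (1.72 ± 0.17), while exons were 1578 ± 63.2 and 1294 ± 17.7 CPM (-0.29 ± 0.12, adjusted p = 0.125).

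HMOX1, heme oxygenase, cleaves heme and is the textbook response gene to arsenite. It had 16.3, 16.4 and 20.3 CPM on exons in control and 61.2, 71.6 and 64.7 CPM after NaAsO2 (1.90 ± 0.14, adjusted p = 1.78e-08). On introns the values were 9.64, 10.0 and 10.1 CPM against 234, 241 and 234 CPM (4.57 ± 0.21, adjusted p = 2.92e-15). Both rose in every library, and the intron change exceeded that of exons by 2.67 ± 0.23. FTL and FTH1 encode the chains of the iron store ferritin. FTL introns rose from 14.4 ± 2.80 to 71.1 ± 11.6 CPM (2.29 ± 0.21), and its exons rose from 559, 779.5 and 603 CPM to 928, 984 and 1092 CPM (0.63 ± 0.17, adjusted p = 0.0167). Of the 25 NRF2 genes tested on exons, only HMOX1 was higher and only SLC7A11 lower by 2-fold. At any size 9 were higher, beside 6.31% of all genes, and the median was 0.32. SLC7A11, the cystine importer, had 235, 194 and 216 CPM on exons in control and 113, 108 and 102 CPM after NaAsO2 (-1.0 ± 0.18, at the edge of the size limit), while its introns did not pass the test (0.16 ± 0.23, adjusted p = 0.735). On introns 3 of 24 were higher (HMOX1, FTL and FTH1) and TXN, thioredoxin, was lower. FTH1 shares 63.2% of its exon bases with other annotated genes, so its exon counts are uncertain.

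Heat shock genes were higher in both tables. Of the 29 HSF1 targets tested on exons, 5 were higher by 2-fold and none lower, and 18 were higher at any size. Of all genes, 0.492% and 6.31% were higher by these rules. The median of the list was 0.55. Of 22 tested on introns, 12 were higher by 2-fold, 14 at any size and none lower, beside 0.925% and 1.86% of all genes higher. The median on introns was 1.03. The inducible HSP70 gene HSPA6 (chr1:161524540-161526894), which has no introns, went from 0.745, 1.10 and 0.963 CPM to 4.40, 3.89 and 5.14 CPM (2.25 ± 0.41, adjusted p = 0.000911). HSPA1A, the main inducible HSP70 gene, went from 27.3, 30.6 and 24.9 CPM to 91.5, 78.7 and 96.0 CPM (1.68 ± 0.21, adjusted p = 2.4e-05). HSPA1B gave a like change (1.68 ± 0.23), but the 2 genes are almost identical and their reads cannot be assigned with certainty. DNAJB1, an HSP40 cochaperone of these HSP70 proteins, rose from 124 ± 15 to 233 ± 10.8 CPM (0.91 ± 0.15, adjusted p = 0.000331).

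HSPH1 encodes the HSP110 exchange factor of HSP70. Its introns stood at 26.2, 30.9 and 22.8 CPM in control and at 79.3, 74.8 and 86.3 CPM after NaAsO2 (1.59 ± 0.17, adjusted p = 5.47e-07), while exons went from 116 ± 4.16 to 167 ± 7.95 CPM (0.52 ± 0.10, adjusted p = 0.00105). Neither table had overlapping groups, and the intron change was the larger by 1.08. BAG3, which links HSP70 to selective autophagy, rose by 1.5 ± 0.18 on introns and by 0.41 ± 0.11 on exons. With library size alone, neither HSPH1 nor BAG3 passed the adjusted p on exons. CHORDC1, an HSP90 partner whose promoter is shown above, rose from 40.4 ± 4.62 to 96.6 ± 5.99 CPM on introns (1.25 ± 0.22), with exons at 68.3 ± 2.32 and 82.6 ± 0.854 CPM (adjusted p = 0.346). For the constitutive chaperones HSP90AB1 and HSPA8, introns rose by 1.23 ± 0.14 and 1.36 ± 0.32, and exons by 0.83 ± 0.12 and 0.81 ± 0.15. Across the list, the intron change exceeded the exon change by 2-fold in 3 of 21 genes, HSPH1 and BAG3 among them, and never fell below it by that much, and with 1 library size for both tables it did so in none of the 21. With introns scaled by all counts of a library, the list had 4 intron calls and a median of 0.58, and under library size alone it had 4 exon calls, 11 at any size and a median of 0.37.

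**Figure D2:**
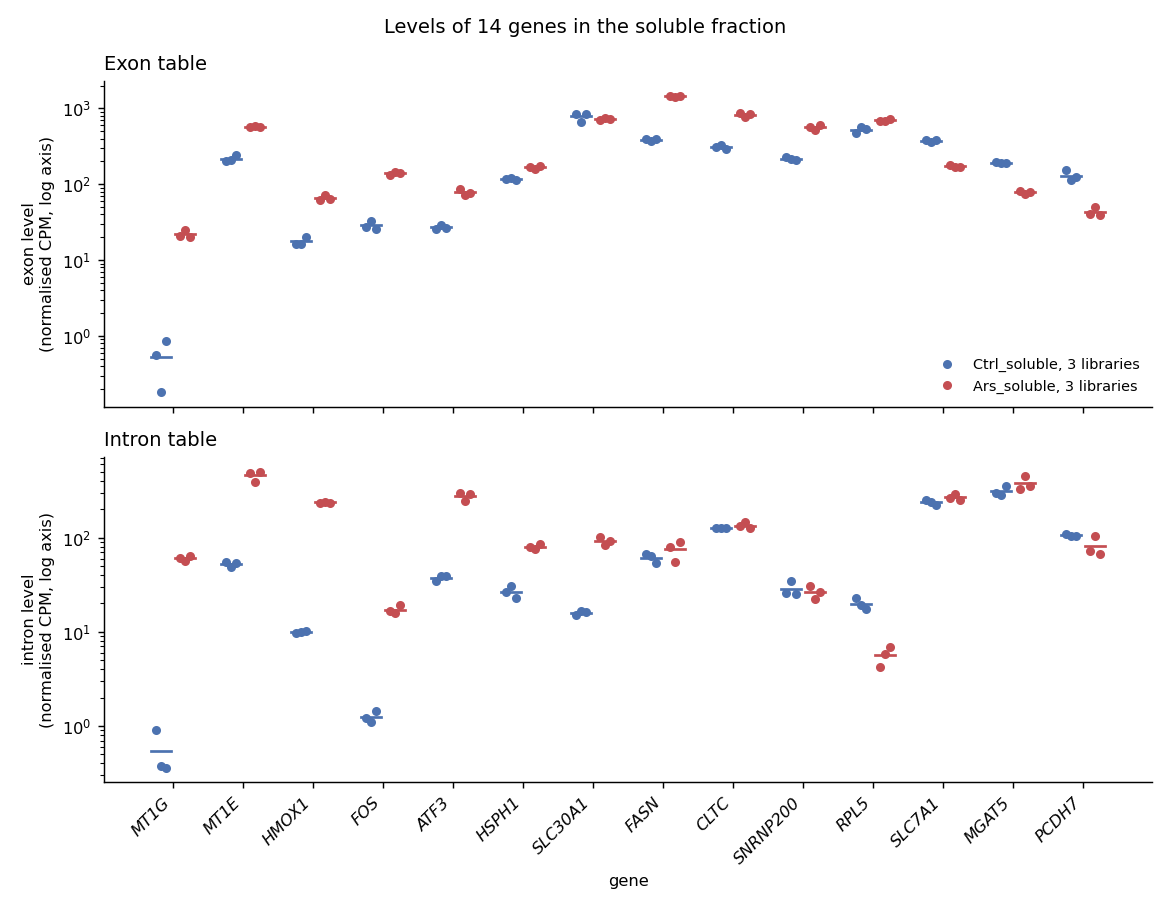
TMM-normalised CPM (log axis) of 14 genes on exons and introns in the soluble fraction, with one point per library and a line at the mean of 3. MT1G, MT1E, HMOX1, FOS, ATF3 and HSPH1 were higher after NaAsO2 in both tables; SLC30A1 moved on introns; FASN, CLTC and SNRNP200 moved on exons; RPL5 introns, and SLC7A1, MGAT5 and PCDH7 exons, were lower.

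Of the 41 immediate early genes tested on exons, 13 were higher past 2-fold and none lower, beside 0.492% of all genes higher. At any size 23 were higher and 1 lower, beside 6.31% and 7.0% of all genes, and the median was 0.64. FOS (chr14:75278826-75282230), a subunit of the AP-1 factor, had 27.7, 32.9 and 25.4 CPM on exons in control and 132, 147 and 142 CPM after NaAsO2 (2.29 ± 0.14, adjusted p = 7.26e-10). Its introns went from 1.21, 1.12 and 1.45 CPM, which was 4, 3 and 4 counts, to 16.5, 15.7 and 19.4 CPM (3.74 ± 0.45). The groups were apart in both tables. EGR1, a zinc finger transcription factor, had 95.5, 100.1 and 97.4 CPM on exons in control and 323, 300.3 and 309.7 CPM after NaAsO2 (1.67 ± 0.16), and rose by 2.7 ± 0.29 on introns. ATF3, a stress-induced factor of the CREB family, rose from 27.1 ± 1.74 to 79.1 ± 7.58 CPM on exons (1.54 ± 0.11, adjusted p = 4.55e-09) and from 35.0, 39 and 38.7 CPM to 294, 248 and 289 CPM on introns (2.88 ± 0.17, adjusted p = 4.84e-13). DUSP2, a phosphatase that turns off MAP kinases, rose by 2.03 ± 0.33 and 3.27 ± 0.40. ZFP36, which directs AU-rich mRNAs to decay, rose by 1.46 ± 0.14 and 1.85 ± 0.36. On introns 11 of 30 tested were higher, beside 0.925% of all genes, with a median of 0.80, and KLF6 alone was lower (-1.24). The intron change exceeded the exon change in FOS, EGR1, ATF3, DUSP2 and ARC, and lay below it in MYC, CCN1 and KLF6. The calls for FOS and ARC in that last test were lost when any 1 of the 6 libraries was left out. With 1 library size for both tables, all 5 calls above were lost, leaving none above and 4 below. With introns scaled by all counts of a library, the list had 7 higher and 3 lower on introns and a median of 0.35. Under library size alone it had 11 higher on exons and a median of 0.45.

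The ATF4 list, of the integrated stress response, held 20 genes tested on exons. ATF3, DDIT3 and DDIT4 were higher and SLC7A11 lower by 2-fold, and 6 were higher and 2 lower at any size, with a median of 0.30, beside 0.492% and 6.31% of all genes higher by 2-fold and at any size. DDIT3, the factor CHOP, rose from 7.52 ± 0.765 to 16.5 ± 1.89 CPM (1.12 ± 0.18, with 39.6% of its exon bases shared with another gene), and DDIT4, an mTORC1 inhibitor, rose from 18.7 ± 1.81 to 38.5 ± 2.21 CPM (1.04 ± 0.27). None of 15 endoplasmic reticulum chaperones, 17 p53 and GADD45 genes or 11 NF-kB genes passed the 2-fold limit on exons, with medians of -0.22, 0.29 and 0.14. At any size, 2 chaperones were lower (8 under library size alone), and 5 p53 and GADD45 genes were higher and 1 lower. BTG2, an antiproliferative p53 target, was the one gene of these lists higher on introns (1.70). Scaled by library size alone, the exon medians of the ATF4 and NF-kB lists were 0.11 and -0.04.

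**Figure D3:**
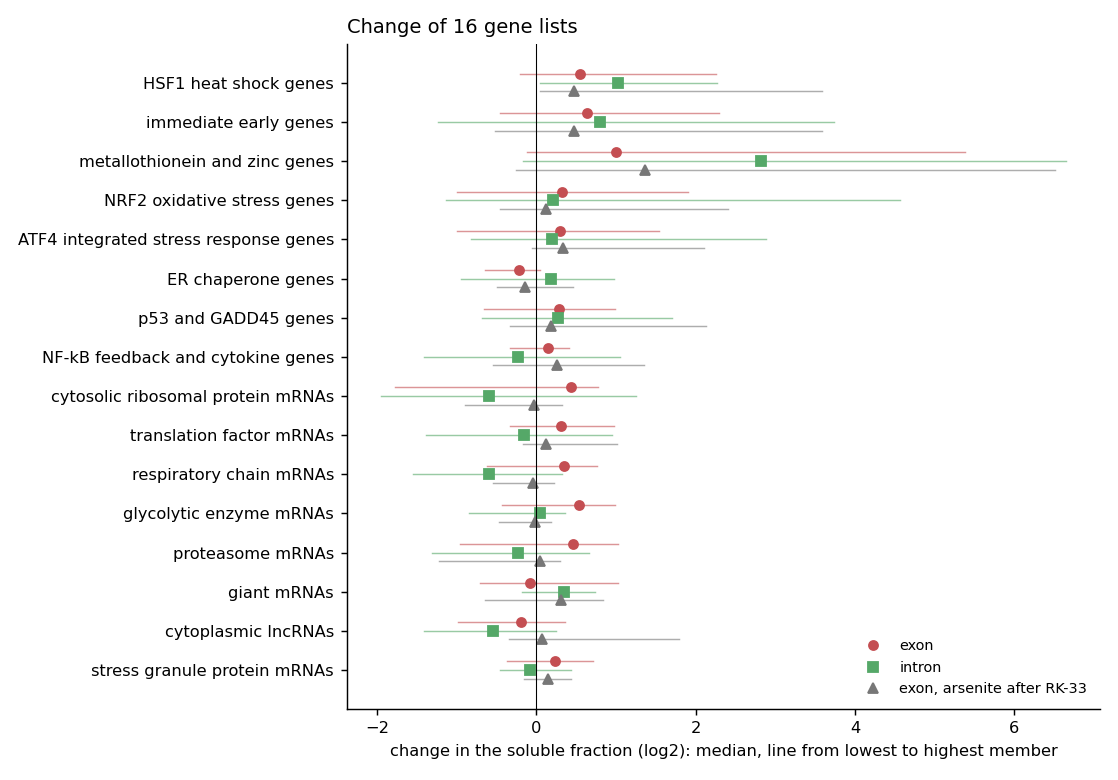
Log2 change after NaAsO2 in 16 gene lists, with a marker at the median and a line from the lowest to the highest member, for exons, introns, and exons after RK-33 pre-treatment. Metallothionein and zinc genes, HSF1 targets and immediate early genes had intron medians of 2.82, 1.03 and 0.80, and ribosomal protein and respiratory chain mRNAs had intron medians of -0.60 with exon medians of 0.43 and 0.35.

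A further set of genes had higher exons with introns that were tested and not higher, 37 of the 65 protein-coding genes called on exons. These were mostly long, many-exon mRNAs, with a median of 27 exons, 3810 coding bases and 528 bases of 3′UTR, against 9 exons, 1446 coding bases and 1367 bases of 3′UTR over the 13419 protein-coding genes tested. Their median exon change was 1.17 and their median intron change 0.28. The 16 genes higher in both tables were compact instead, with medians of 4 exons and 960 coding bases, an exon change of 1.44 and an intron change of 2.24. The 12 without an intron test had a median of 2 exons. Exon number also decides whether a gene has introns to test, so the classes differ in it partly by construction.

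FASN, fatty acid synthase, was the strongest of the long mRNAs. On exons it had 389, 370.1 and 397 CPM in control and 1462, 1412 and 1459.6 CPM after NaAsO2 (1.91 ± 0.24, adjusted p = 2.58e-05). Its introns had 66.9, 63.2 and 54.2 CPM against 79.3, 54.9 and 91.0 CPM, with overlapping groups (0.28 ± 0.31, adjusted p = 0.658). The intron change lay 1.64 ± 0.20 below the exon change (adjusted p = 4.3e-06). SNRNP200, the helicase that unwinds U4 from U6 in the spliceosome, had 229, 214 and 207 CPM on exons in control and 567, 515 and 597 CPM after NaAsO2 (1.37 ± 0.13), while introns overlapped between groups (-0.13 ± 0.23, adjusted p = 0.805). DHX9, an RNA helicase, rose from 122 ± 1.72 to 284 ± 15.8 CPM on exons (1.22 ± 0.12), with introns at 176 ± 6.60 and 197 ± 16.7 CPM (adjusted p = 0.624). HSPG2, the basement membrane proteoglycan perlecan, rose from 235 ± 12 to 531 ± 56.1 CPM on exons (1.17 ± 0.16), with introns at 81.1 ± 10.1 and 78.9 ± 2.02 CPM. DYNC1H1, the dynein heavy chain, rose by 1.02 ± 0.14 on exons and was the 1 giant mRNA of 28 past 2-fold, and that list as a whole had an exon median of -0.08.

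Other genes of the same class were picked out after their values were seen. CLTC, the clathrin heavy chain, had 310.3, 324 and 292 CPM on exons in control and 861, 758 and 837 CPM after NaAsO2 (1.41 ± 0.21), with introns at 126 ± 0.881 and 134 ± 10.2 CPM. CAD, the enzyme that starts pyrimidine synthesis, rose by 1.33 ± 0.17 on exons, with an intron change of -0.85 ± 0.33 that did not pass the test (adjusted p = 0.132). PRPF8, the core protein of the spliceosome, rose by 1.24 ± 0.14 on exons and had an intron change of 0.00 ± 0.25. MYH9, nonmuscle myosin heavy chain, rose from 710.3 ± 21.2 to 1488 ± 99.1 CPM on exons (1.07 ± 0.20), with introns at 369 ± 23.8 and 402 ± 24 CPM.

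Genes for the translation and energy machinery differed in the opposite tables. Of the 79 cytosolic ribosomal protein mRNAs, 24 were higher and 3 lower on exons at any size, beside 6.31% and 7.0% of all genes, with a median of 0.43. Of 61 tested on introns 13 were lower by 2-fold, beside 1.59% of all genes, none was higher and the median was -0.60. The intron change lay at least 2-fold below the exon change in 31 of the 61 (median difference -1.02), beside 3.81% of all genes. Short genes in general leaned the same way. Protein-coding genes with at most 500 coding bases had medians of 0.29 on exons, -0.30 on introns and -0.47 for the difference. The part that length had in these lists was not tested. RPL5, a large subunit protein, had 22.9, 19.3 and 17.4 CPM on introns in control and 4.26, 5.76 and 6.93 CPM after NaAsO2, with no overlap (-1.80 ± 0.37, adjusted p = 0.00326). Its exons had 467, 564 and 542 CPM against 681, 673 and 726 CPM (0.40 ± 0.12, adjusted p = 0.0239), so the tables moved in opposite directions, although under library size alone the exon change did not pass the test. RPL10A introns fell from 35.0 ± 3.22 to 10.7 ± 2.03 CPM (-1.71 ± 0.22), and RPS23 introns, with few counts, from 7.02 ± 3.59 to 1.86 ± 0.623 CPM (-1.95 ± 0.46). RPL36A was the exception on exons, at 17.1, 14.5 and 16.9 CPM in control and 2.82, 5.58 and 5.69 CPM after NaAsO2 (-1.77 ± 0.23). Many introns of these genes host small nucleolar RNAs, and ribosomal protein genes have many pseudogene copies, so both tables are uncertain for single members.

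Respiratory chain mRNAs had an exon median of 0.35 with none past 2-fold, and of 31 tested on introns 4 were lower (median -0.60) and 13 lay at least 2-fold below the exon change. COX7C, a subunit of cytochrome oxidase, fell from 5.85 ± 1.52 to 1.99 ± 0.405 CPM on introns (-1.55 ± 0.46), with exons at 117 ± 10.3 and 144 ± 9.20 CPM (adjusted p = 0.373), and its intron call was lost when any 1 library was left out. Proteasome mRNAs had 16 of 31 higher at any size on exons and only PSMD2 past 2-fold (median 0.46), and glycolytic mRNAs had 11 of 19 higher and 1 lower (median 0.54). Translation factor mRNAs had 10 of 37 higher at any size, where the share over all genes was 6.31%. These small rises on exons depended on the scaling to unlike degrees. With library size alone the ribosomal proteins had 4 higher and 4 lower with a median of 0.25, and the proteasome had 6 higher and 1 lower. Glycolytic mRNAs kept 9 of 19 higher and 1 lower (median 0.36), and translation factors 5 of 37 higher (median 0.12). The mean intron share and the MALAT1 level were lower in the NaAsO2 libraries, as given above, and their part in these intron values was not tested.

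Genes with lower exons were mostly weakly expressed. Of the 209, 100 were long noncoding RNAs, which was 3.56% of the 2806 tested, and 96 of these averaged under 10 CPM. Among protein-coding genes 70 of 13439 were lower (0.521%), with a median of 5.32 CPM and a median 3′UTR of 1674 bases. Some were well expressed. MGAT5, a glycosyltransferase that branches N-glycans, had 196, 188 and 189.9 CPM on exons in control and 81.6, 74.5 and 79.6 CPM after NaAsO2 (-1.28 ± 0.13, adjusted p = 1.08e-06). Its introns had 311 ± 33.7 and 378 ± 61.9 CPM (0.28 ± 0.15, adjusted p = 0.277), so exons alone passed the test. SLC7A1, the importer of arginine and lysine, fell from 375 ± 9.94 to 172 ± 4.85 CPM (-1.12 ± 0.10, adjusted p = 6.65e-07), with introns at 237 ± 13.5 and 269 ± 21.3 CPM. PCDH7, a protocadherin, fell from 153, 113 and 126 CPM to 40.5, 49.8 and 39.7 CPM (-1.59 ± 0.17). CHST3, a chondroitin sulfotransferase, fell by 1.18 ± 0.15 on the log2 scale and VMP1, an autophagy protein, by 1.38 ± 0.19, with intron changes of 0.23 ± 0.14 and -0.49 ± 0.17 that did not pass. Over the 85 genes with lower exons tested on introns, 9 were lower there, none was higher by 2-fold, and the direct test put the intron change above the exon change in 29.

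Seen from the introns, 106 of the 161 genes with higher introns were tested on exons. There 17 were higher by 2-fold and 34 at any size, against 0.492% and 6.31% of all genes, and 70 did not pass the adjusted p, which does not show that their exons stayed level. The median exon change of the 106 was 0.49. The direct test placed the intron change above in 46 of the 106. Of the 276 genes with lower introns, 208 were tested on exons, where 9 were lower by 2-fold, 13 were higher and 21 lower at any size, and the median was 0.12. In the 500 genes whose intron change lay below the exon change, 197 had lower introns alone at any size, 100 had higher exons alone, 30 had both and 172 had neither past the test by itself.

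The exon change fell with the length of the 3′UTR. Its median went from 0.26 in the 3133 protein-coding genes with at most 500 bases of 3′UTR to 0.16, 0.11, 0.02 and -0.11 in the next 4 classes and -0.19 in the 330 genes over 8000 bases. Genes called higher numbered 30 of 3133, 18 of 2311, 11 of 3028, 3 of 3052, 3 of 1565 and 0 of 330 in these classes. Of all protein-coding genes tested, 0.484% were called higher. Spearman's rho across the 13419 genes, measured in the same libraries, was -0.29. The change in the insoluble fraction had a rho of 0.09 with this length, or 0.27 without NaAsO2 insoluble replicate 3, and the intron change one of 0.05. Coding length gave a weaker trend on exons (medians from 0.29 to -0.05, rho -0.13) and the opposite one on introns, from -0.30 in genes with at most 500 coding bases to 0.20 over 8000 (rho 0.23). The exon calls did not follow the falling median with coding length. From the shortest to the longest coding class, genes called higher numbered 4 of 1050, 11 of 2906, 16 of 5153, 17 of 3206, 14 of 910 and 3 of 194. The long mRNAs such as FASN and SNRNP200 that rose on exons were among these calls and stood off the trend of the medians with coding length. Their short 3′UTRs lay on the other trend. Length, base composition and expression level are related among genes, and these correlations describe the libraries only.

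**Figure D4:**
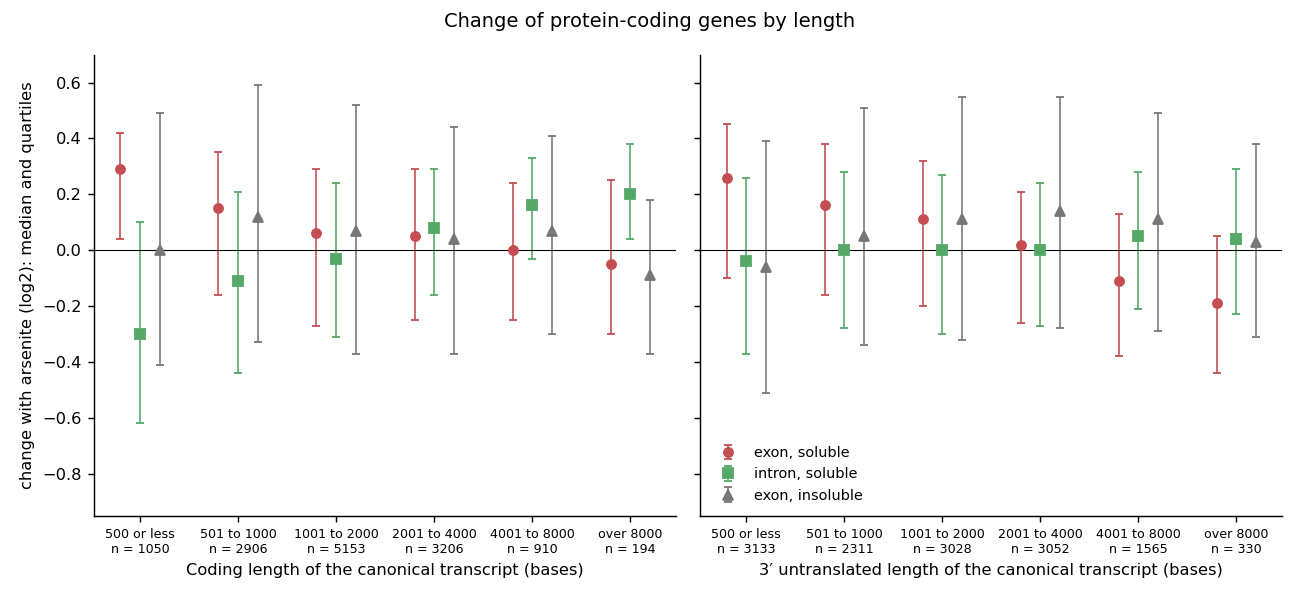
Median log2 change after NaAsO2 with quartiles, by coding length and by 3′UTR length in bases, for exons and introns of the soluble fraction and exons of the insoluble fraction with all its replicates. The soluble exon median falls from 0.26 to -0.19 across 3′UTR classes, and the soluble intron median rises from -0.30 to 0.20 across coding length classes.

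The insoluble fraction of the same treatment, which shares no library with the soluble comparison, changed in more genes, with 991 higher (5.61%) and 1479 lower (8.37%). Of the 87 genes higher in the soluble fraction 36 were also higher there (41.4%), which was 3.63% of its 991, and of the 209 lower 80 were also lower (38.3%), which was 5.41% of its 1479. Without NaAsO2 insoluble replicate 3 its calls were 452 and 1059, of which 28 and 86 were among the soluble calls of the same direction. The classes of higher exons differed there in value. The 16 protein-coding genes with higher exons and introns had a median insoluble change of 1.82 (1.97 without that replicate), with 12 higher (13 without that replicate) and 1 lower. The 37 genes with introns tested and not higher had an insoluble median of 0.50 (0.15 without that replicate). Of these, 9 were higher there (4 without that replicate) and none lower. DHX9 and HSPG2 had insoluble changes of -0.60 and -0.68, or -0.38 and -0.76 without that replicate. MGAT5 had 0.01 there, or 0.14, against its soluble fall. Immediate early genes were higher in the insoluble fraction in 33 of 41, with a median of 1.63, and ribosomal protein mRNAs lower in 11 of 79, with a median of -0.45. Without that replicate these lists had 32 higher (median 1.44) and 6 lower (median -0.49). Over all genes, the soluble change minus the insoluble change was called above in 882 (4.99%) and below in 807 (4.57%), and without that replicate in 577 and 771. Among the 37 genes with introns not higher it was called above in 12, or 16 without that replicate, and below in none. As those genes were chosen by the soluble change that enters this difference, the count is a description.

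The same hour of NaAsO2 after RK-33, in soluble libraries that share none with the main comparison, gave 323 genes higher (1.83%) and 33 lower (0.187%) on exons, and 1534 (8.81%) and 728 (4.18%) on introns. Without RK-33 soluble replicate 3 these counts were 230 and 30 on exons and 1354 and 681 on introns. On exons 36 of the 87 higher genes were again higher, which was 11.1% of the 323, and 15 of the 209 lower genes were again lower, which was 45.5% of the 33. On introns 118 of the 161 higher (73.3%) and 147 of the 276 lower (53.3%) were again called, which was 7.69% of the 1534 and 20.2% of the 728. Without that replicate 35 and 15 were again called on exons, and 117 and 148 on introns. The genes higher on exons and introns had a median exon change of 1.99 after RK-33 (2.1 without that replicate), with 11 of 16 called. Those with higher exons and introns not higher had one of 0.27 (0.39 without that replicate), with 3 of 37 called. Immediate early genes had 10 of 41 called with a median of 0.47, and ribosomal protein mRNAs none of 79 with a median of -0.03. Without RK-33 soluble replicate 3 they had 11 higher (median 0.67) and 1 lower (median 0.10). Tested directly, the exon change without RK-33 exceeded that after it in 7 genes (0.0396%) and lay below it in 162 (0.917%), or in 2 and 75 without that replicate. None of the 37 genes with introns not higher was among the calls below, and 3 were among those above, or none without that replicate. NaAsO2 soluble replicate 3 after RK-33, with the high intron share given above, was kept in all these values.

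**Figure D5:**
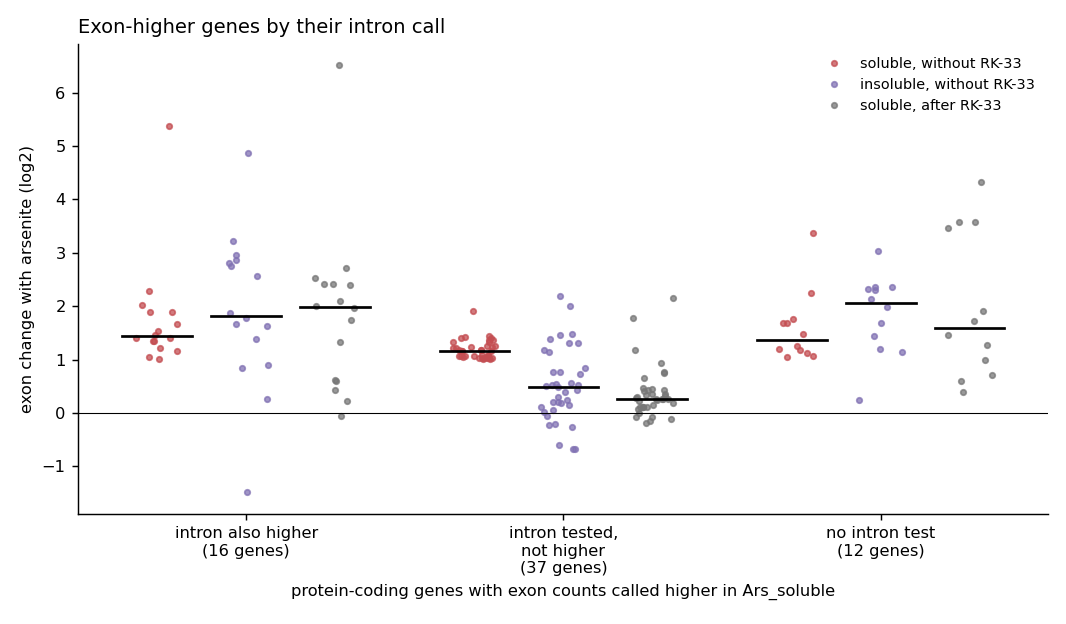
Log2 exon change, with all replicates included, after NaAsO2 of the 65 protein-coding genes with higher soluble exons, in the soluble fraction, in the insoluble fraction and in the soluble fraction after RK-33, with one point per gene and a black line at the median. The 16 genes with higher introns have medians of 1.44, 1.82 and 1.99, the 37 with introns not higher 1.17, 0.50 and 0.27, and the 12 without an intron test 1.37, 2.06 and 1.60; the soluble values chose the genes.

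Circular RNAs, which form when a splice site joins to one upstream and which lack ends, were read from back-splice junctions. Their share of back-spliced and linear junction counts was 1.51% ± 0.274 in control and 2.02% ± 0.299 after NaAsO2 (SD, n = 3), with overlapping groups (exact permutation test, two-sided p = 0.2). Of 237 tested, edgeR's quasi-likelihood test called none, and edgeR's likelihood ratio test called 1. By the quasi-likelihood test 11 had an unadjusted p under 0.05, 10 of those higher. The median log2 change of the 237 was 0.39. In simulated counts the quasi-likelihood test recovered 2 of 10 circles given a log2 change of 2. It recovered 0 of 10 at each of 1.5, -1.5 and -2. Whether the simulated circles had counts as high as those of the soluble libraries was not tested, so recovery in the real counts may differ. The lack of calls is therefore not read as a lack of change in single circles. The MAP3K4 circle (chr6:161034259-161049979) had 3, 6 and 4 counts in control and 12, 9 and 18 after NaAsO2 (1.52 ± 0.62, adjusted p = 0.71). Circles from MPP6 (chr7:24623666-24680520) and ARID1A (chr1:26729651-26732792) had changes of 1.36 ± 0.75 and 1.57 ± 0.88, also with an adjusted p of 0.71. The 5 MPP6 circles tested ran from -1.0 to 1.36, with 0.74 ± 0.53 in the one with the most counts, and the 4 of MAN1A2 from -0.08 to 1.02, the lowest in the one with the most counts. At a minimum of 48 counts, the quasi-likelihood test called 1 of 84 circles higher.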

How the data were processed

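The authors deposited raw counts of sequenced fragments per gene over exons and, in a second table, over introns, made from reads aligned to GRCh38.p13 with STAR 2.7.2b, sorted with SAMtools 1.2 and counted with featureCounts of Subread, for introns with at least 25 overlapping bases and without use of strand. They also deposited counts of back-spliced and linear junctions, both as counts per circRNA. The exon table held 60308 genes and that of introns held 37473, in which 1 and 21 names split over lines were rejoined, and 0 columns stayed unmapped. The 37 mitochondrial genes of the exon table were at 0 in all libraries and were not analysed here. Columns were tied to samples by library name.

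Counts were tested with edgeR 4.0.16 (R 4.3.3), by its quasi-likelihood test with TMM scaling, for genes averaging at least 1 CPM, where all 24 libraries of the 8 groups shared one model. A call needed p under 0.05 after Benjamini-Hochberg adjustment and a log2 change of at least 1 in size, and "at any size" means the p alone. The intron change minus the exon change was an interaction term over both tables, each scaled by its own TMM. Tables were made with Python 3.11.15, numpy 2.4.6 and pandas 2.3.3, exact tests with scipy 1.17.1 and figures with matplotlib 3.10.9. CircRNAs needed 24 counts. Scripts were tested on simulated data. Replicates correlated at Pearson 0.9885 to 0.9941 on log2 CPM and differed by more than sampling noise, so none was a copy. Depth limits shares of a library least, with 95% Wilson intervals at most 0.0487 points wide for introns, which cover counting error only.

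Named genes were the 10 with the smallest adjusted p and the 10 with the largest change in each direction at a mean of at least 10 CPM, the 10 of the intron minus exon test at a mean of at least 20 counts, members of fixed lists, and circRNAs past the threshold or from 8 set genes. The comparison, its lists and its rules were chosen with earlier results of these data known. Promoters came from RefSeq tables, in which 27305 genes had a window. Alternatives changed the scaling, test (edgeR's likelihood ratio test and DESeq2 1.42.0), filter, libraries fitted, replicate block and size limit. The comparison after RK-33, the fits without replicates that stood apart and the replicate block within a treatment were added after seeing the data. Not every gene that these rules allow is named, and 1 item is not reported here.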

Additional observations from a re-analysis of the deposited data

Results flagged for a closer look

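Exon changes of named genes after NaAsO2 differed between the soluble and the insoluble fraction by the test of the difference itself (edgeR's quasi-likelihood test, log2 soluble minus insoluble). The soluble change was the higher one for HSPG2 (1.85), DHX9 (1.82), CLTC (1.62), SNRNP200 (1.43), FASN (1.40), PRPF8 (1.18), VMP1 (1.09) and PSMD2 (1.01). It was the lower one for ZFP36 (-1.35), MGAT5 (-1.29), EGR1 (-1.28) and CHST3 (-1.24). In the insoluble fraction VMP1 fell by 2.47 on the log2 scale, and ZFP36 and EGR1 rose by 2.81 and 2.95, so for these 3 genes the sizes differed and not the directions. Without NaAsO2 insoluble replicate 3, these insoluble changes of VMP1, ZFP36 and EGR1 were -2.15, 2.88 and 3.21. Without the same replicate the differences of PRPF8, PSMD2 and VMP1 (0.94, 0.97 and 0.75) no longer reached 2-fold, and the others did.

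Between NaAsO2 alone and NaAsO2 after RK-33, the soluble exon change differed by the same kind of test, as log2 without minus after RK-33. It was higher without RK-33 for MYH9 (1.08) and lower for PCDH7 (-1.35), ZFP36 (-1.26), SLC7A11 (-1.24), MGAT5 (-1.21) and CHST3 (-1.07). Without RK-33 soluble replicate 3 the difference for MYH9 no longer passed (0.98, adjusted p = 0.149), and the other 5 did. These genes were named for their soluble change, which enters both differences, so the values are descriptions.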

How the results depend on the processing

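With library size alone, exon calls were 49 higher and 515 lower, and calls of the soluble minus the insoluble change 514 and 1129. With all counts of a library, intron calls were 64 and 1470, and with 1 size for both tables the intron minus exon calls were 50 and 1462. The exon table gave 409 lower in a fit of the 6 soluble libraries and 385 in one of 12, and the likelihood ratio test gave 245 higher introns. Without a limit on size, calls were 1114 and 1237 on exons, 323 and 595 on introns, and 895 and 1336 for their difference, and with a log2 limit of 2 they were 11 and 14 on exons and 42 and 41 on introns. Leaving out 1 library gave 54 to 94 higher and 97 to 250 lower on exons, 106 to 136 and 143 to 250 on introns, and 172 to 244 and 359 to 558 for the difference. Without NaAsO2 insoluble replicate 3, the insoluble fraction had 452 higher and 1059 lower, and the soluble minus insoluble change 577 and 771. For circRNAs 1 was called by the likelihood ratio test and 1 at a minimum of 48 counts. The cause of these shifts was not tested. Intron share differences ran from -6.38 to -3.78 points, RN7SL1 from 2.80 to 4.12 points and circRNA content from 0.303 to 0.558 log2 when 1 library was left out.

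With the replicate number as a replicate block, calls were 90 and 206 on exons, 157 and 276 on introns, 251 and 502 for their difference, 904 and 1550 in the insoluble fraction and 955 and 798 for the soluble minus the insoluble change. Control and NaAsO2 soluble libraries with the same number deviated together at 0.0411, -0.323 and -0.0399 over 10264 genes. No control library correlated best with the NaAsO2 library of its own number. These values cannot exclude a pairing, because fractions that the study pairs also gave values as low as 0.0029. The study's methods pair the soluble and the insoluble fraction of a treatment, where deviations of same-numbered libraries correlated at 0.0029 to 0.336 in 6 pairs over 10271 genes. With each such pair as a block, added after seeing the data, the soluble minus the insoluble change had 799 and 718 calls against 882 and 807 without a block.

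Among single genes, the exon calls of SLC7A11, PSMD2, DDIT4 and DYNC1H1, the intron calls of HSP90AA1 and COX7C and the calls of the intron minus exon change of FOS, ARC, CCN1 and KMT2D were lost under 5 or more alternatives each, and no value of a called gene turned its direction. Calls near a 2-fold change and below about 20 counts are the least firm, and MT1G, FOS and RPS23 rest on under 20 intron counts in some libraries.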

Other observations

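The extracellular matrix and integrin mRNAs, which are made on the endoplasmic reticulum, moved both ways on exons, with 6 of 28 higher and 4 lower at any size, beside 6.31% and 7.0% of all genes. FN1, fibronectin, had 881, 883 and 792 CPM in control and 1732, 1625 and 1540.5 CPM after NaAsO2 (log2 0.94 ± 0.17 SE, adjusted p = 0.000723, edgeR's quasi-likelihood test), while its introns overlapped between the groups (-0.08 ± 0.16, adjusted p = 0.83). COL6A3, a collagen VI chain, was lower on exons (-0.70, adjusted p = 0.00241). Giant mRNAs were as mixed, with 6 of 28 higher and 4 lower at any size. Under library size alone the giant mRNAs had 2 higher and 7 lower, and the matrix and integrin mRNAs 5 and 6. KMT2D, a histone methyltransferase, fell from 229.6, 180.2 and 228 CPM to 126, 147 and 116 CPM (-0.71 ± 0.18, adjusted p = 0.0117), with an intron change of 0.35 ± 0.25 that did not pass the test. Introns of the giant mRNAs had a median change of 0.35, with 2 of 28 higher at any size, and this median was -0.09 with introns scaled by all counts of a library.

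Among noncoding RNAs of the cytoplasm, 3 of 21 were lower on exons at any size and none higher, beside 7.0% and 6.31% of all genes. The list had a median of -0.19, beside -0.2 for the 2806 long noncoding RNAs tested, so it did not stand out from them. SNHG3, a host of small nucleolar RNAs, had 389, 338 and 353 CPM in control and 191, 179 and 176 CPM after NaAsO2 (-0.98 ± 0.13, adjusted p = 2.94e-05). NORAD, which binds PUMILIO proteins, was lower by a smaller amount (-0.67 ± 0.10, adjusted p = 0.000244). RMRP, an RNA polymerase III product that takes part in ribosomal RNA processing, rose from 3652, 3509 and 3171 CPM to 5495, 6656 and 5772 CPM (0.80 ± 0.15, adjusted p = 0.00155). The list of stress granule protein mRNAs had 6 of 26 higher at any size (median 0.23), and 2 of 26 under library size alone. Its largest change was that of EDC4, a decapping cofactor that the list counts among them (0.71, adjusted p = 0.000806, edgeR's quasi-likelihood test). Replication-dependent histone mRNAs had 2 of 18 higher at any size and splicing regulators 4 of 22, with medians of 0.57 and 0.12, beside 6.31% of all genes higher at any size. Under library size alone these counts were 0 and 1, with medians of 0.39 and -0.06.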
